A study of Homo sapiens with 6 samples.

Results

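The genes described here are 10 AP-1 and immediate early genes, of which 7 encode subunits of the transcription factor AP-1. They are FOS, FOSB, FOSL1, FOSL2, JUN, JUNB, JUND, EGR1, IER3 and MYC, chosen by gene symbol from a table of 57820 Ensembl gene rows, and each matched 1 row. All 10 were among the 14763 genes tested, those whose mean over the libraries of 2 raised to the log2 value was at least 10. Messenger RNA was sequenced in 6 libraries of hTert-HME1, a human mammary epithelial line immortalised with telomerase. All cells were transfected with an siRNA, labelled control-1 or BRCA2-2, and grown in Mammary Epithelial Growth Medium. There were 3 libraries of control siRNA with EGF, 1 at passage 4 and 2 at passage 6 (replicates A and B). A single library held BRCA2 siRNA with EGF at passage 4, and the 2 remaining libraries, replicates A and B at passage 6, combined BRCA2 siRNA with EGF-free medium (called EGF-free below). Replicates carry the label biological, with nothing on separate cultures. Further groups listed in the series text, such as control siRNA without EGF, were not analysed here. At passage 6 siRNA and medium therefore differed together and cannot be told apart.

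AP-1 is a dimer of basic leucine zipper proteins. JUN proteins pair with each other or with FOS proteins, whereas FOS proteins need a JUN partner, and the mix of subunits sets which genes are bound. In epithelial cells EGF acts through its receptor EGFR and the RAS, RAF, MEK and ERK kinases on the factors ELK1 and SRF, which switch on FOS and EGR1 within minutes. FOSL1 and FOSL2 follow later, FOSL1 being itself a target of AP-1 and a protein that ERK stabilises. MYC, which pairs with MAX, and IER3, a short-lived stress and survival protein, are induced by the same growth factor signal.

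Promoters of RefSeq (GRCh38.p14, which is not the build of the deposited values) were available for 7 of the 10 genes, FOS, FOSB, FOSL2, JUN, JUNB, JUND and EGR1. They were searched on both strands over the 250 bases before the transcription start. The motifs were the AP-1 site TGANTCA, its 8 base relative TGANNTCA, the CArG box bound by SRF, the EGR site GCGNGGGCG, the MYC and MAX site CACGTG and the TATA box TATAAA. No match overlapped another. The 5 printed belong to genes with unlike values. FOS had lower and FOSL2 higher values without EGF, JUN was nearly level, FOSB was high in 1 library, and EGR1 holds the CArG boxes. Capitals mark motif matches. The windows are chr14:75278578-75278827 (+) for FOS, chr2:28392608-28392857 (+) for FOSL2, chr19:45467746-45467995 (+) for FOSB, chr1:58784048-58784297 (-) for JUN and chr5:138465229-138465478 (+) for EGR1, each read 5′ to 3′ in the direction of transcription.
FOS: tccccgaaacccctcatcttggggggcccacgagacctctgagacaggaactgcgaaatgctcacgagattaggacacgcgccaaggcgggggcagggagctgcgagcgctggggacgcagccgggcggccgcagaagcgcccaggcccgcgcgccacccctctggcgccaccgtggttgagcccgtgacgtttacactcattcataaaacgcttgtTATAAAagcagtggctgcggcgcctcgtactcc
FOSL2: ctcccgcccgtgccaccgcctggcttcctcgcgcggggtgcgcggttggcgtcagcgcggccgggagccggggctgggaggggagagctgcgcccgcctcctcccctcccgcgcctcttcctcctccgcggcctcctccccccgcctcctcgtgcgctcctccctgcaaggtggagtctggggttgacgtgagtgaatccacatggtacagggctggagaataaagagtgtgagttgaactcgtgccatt
FOSB: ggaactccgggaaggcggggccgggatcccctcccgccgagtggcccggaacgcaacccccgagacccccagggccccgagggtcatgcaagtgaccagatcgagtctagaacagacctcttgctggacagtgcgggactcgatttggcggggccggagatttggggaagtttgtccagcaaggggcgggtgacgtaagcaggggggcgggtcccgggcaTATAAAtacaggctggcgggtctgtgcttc
JUN: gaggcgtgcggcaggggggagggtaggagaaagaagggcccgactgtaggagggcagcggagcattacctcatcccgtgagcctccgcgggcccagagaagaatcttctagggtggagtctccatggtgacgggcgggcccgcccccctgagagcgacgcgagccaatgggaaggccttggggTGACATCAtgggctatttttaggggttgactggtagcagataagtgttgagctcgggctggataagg
EGR1: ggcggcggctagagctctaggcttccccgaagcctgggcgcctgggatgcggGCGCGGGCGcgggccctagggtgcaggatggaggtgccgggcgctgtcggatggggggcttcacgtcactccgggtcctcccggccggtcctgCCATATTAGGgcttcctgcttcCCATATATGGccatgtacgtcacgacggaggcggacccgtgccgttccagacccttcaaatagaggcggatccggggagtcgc
EGR1 held 2 CArG boxes, 105 to 96 and 83 to 74 bases before the start, and 1 EGR site at 198 to 190. A CArG box was present in 1.16% of 35116 promoter windows of this length and an EGR site in 8.41%. JUN held TGACATCA at 67 to 60 bases before the start, a match to TGANNTCA, which 10.1% of windows held. A TATA box, held by 10.7% of windows, stood 33 to 28 bases before the start in FOS and 30 to 25 in FOSB, and JUNB, not printed, held another. JUND, not printed, held 2 matches to TGANNTCA. FOSL2 held none of these letters in this window, and TGANTCA (6.57% of windows) and CACGTG (6.34%) were found in none of the 7. Bases farther upstream were not searched, so the absence of a match, as of a CArG box in FOS, holds for this window only. A match is a description of the letters, not evidence of binding.

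Several facts of the libraries bear on every value below. Values are normalised log2 values without counts, so the depth behind them is not known. Controls A and B at passage 6 lay much closer to each other (SD of their differences over tested genes 0.119) than the replicates without EGF (0.308). The spread of the whole fit rests on these 2 pairs. If controls A and B came from 1 culture, p-values would cover technical spread there. The outcome with both averaged is given for the members that passed. It is not given for single list or marker genes, whose calls below may not hold under it. Over all tested genes 950 passed at passage 6, and 46 with both averaged. BRCA2 itself was at 10.88 in the passage 4 library labelled BRCA2 siRNA and at 10.19 in the passage 4 control, which goes against that label. The SD of differences from passage 6 controls A and B was 0.29 and 0.321 for the library labelled BRCA2 siRNA, and 0.485 and 0.509 for the passage 4 control. Whether these labels are exchanged was not tested, so every difference that uses a passage 4 library may be one of siRNA as well as of passage or medium. At passage 6 it was at 11.15 and 10.89 in the libraries labelled BRCA2 siRNA and at 11.25 and 11.24 in the controls. The cells had recovered after transfection, per the series text, and groups are named by their labels. The main comparison uses passage 6 libraries only. EGFR was at 15.34 and 15.39 in the passage 6 controls and at 15.67 and 16.25 without EGF (difference 0.60 ± 0.20, standard error, adjusted p = 0.124, limma). Basal mammary markers were all present, 8 of 8 tested, with a summed log2 level of 18.19 to 18.43 with EGF and 19.01 to 19.12 without. The luminal sum was 11.84 to 12.17 with EGF and 11.66 and 11.55 without, and of 4 luminal markers tested KRT18 passed (-0.85, adjusted p = 0.0162, limma), as a fall. The summed level of 10 fibroblast markers was 11.14 and 11.36 in the passage 6 controls, 12.76 and 12.80 without EGF, 11.26 in the passage 4 control and 12.09 in the passage 4 library labelled BRCA2 siRNA. Of these, 8 were tested and 5 passed at passage 6, all higher without EGF, where 3.56% of all tested genes passed higher. Of the 8 basal markers 4 also passed there, all higher (KRT5 0.79, KRT14 0.76, KRT17 1.52 and CDH3 0.89). The haematopoietic markers CD3E and HBB were listed at 0, and the sum of that list was 3.59 to 3.76 in every library. The endothelial marker CDH5 was listed at 0, but the sum of the endothelial list was 8.17 to 10.11, with KDR at 8.04 to 10.07 as its highest gene. Of 2 endothelial markers tested KDR passed at passage 6, higher without EGF (1.23, adjusted p = 0.0248, limma). The part of these markers in the results was not tested. In bulk RNA, fewer cells that express a gene and less RNA per cell cannot be told apart.

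**Figure D1:**
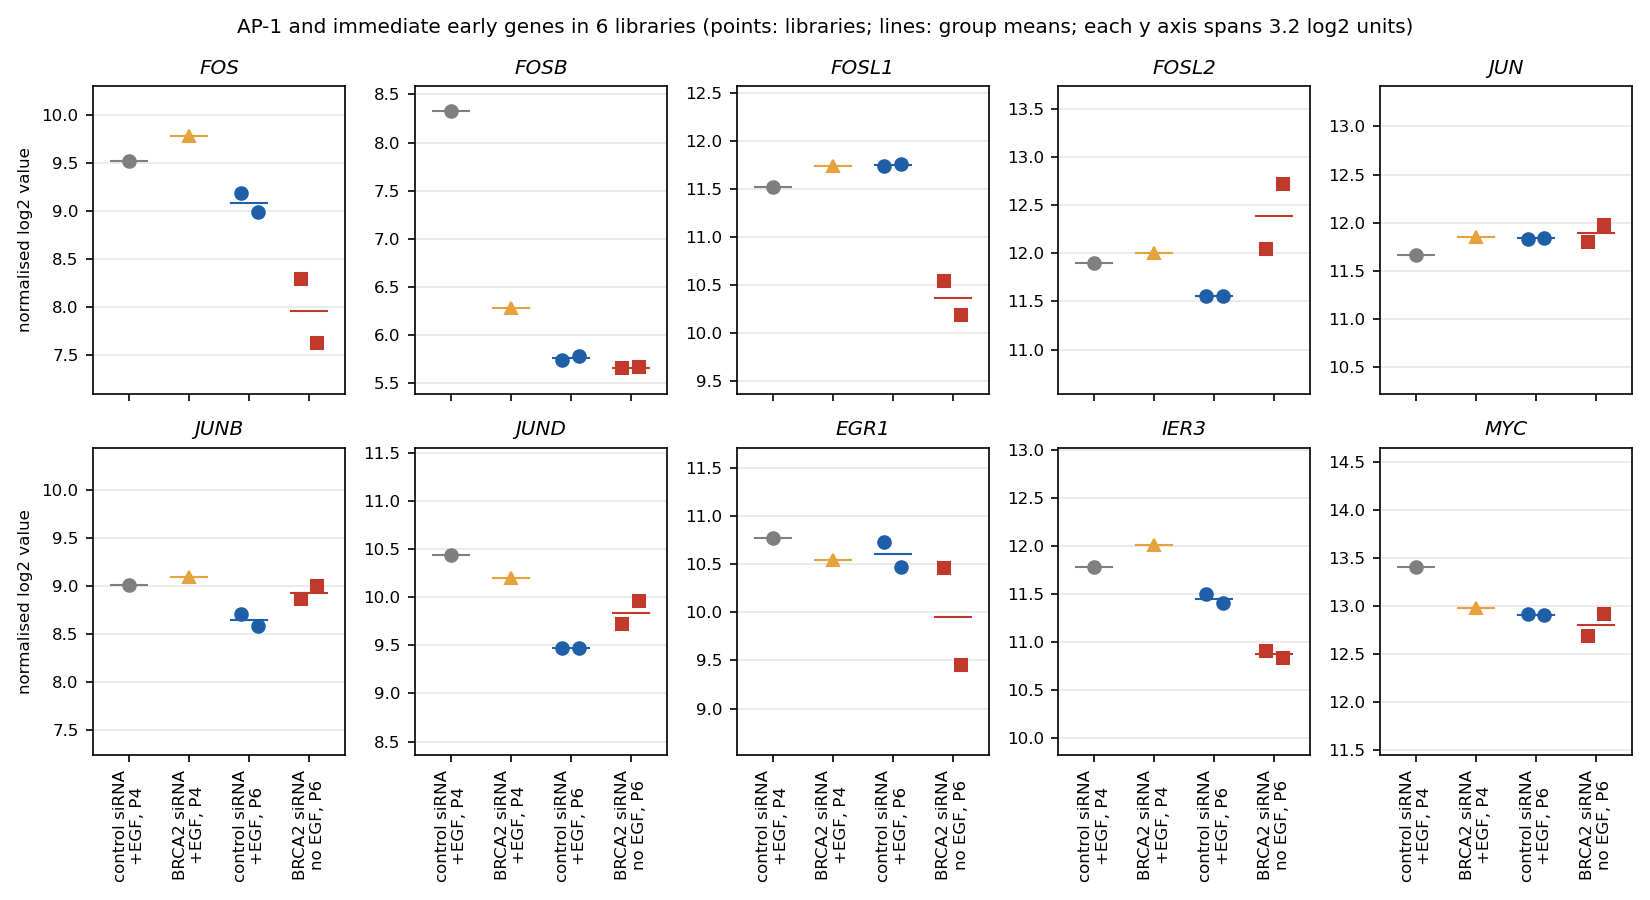
Normalised log2 value of each gene in the 6 libraries, 1 panel a gene, with groups on the x axis, points for libraries and lines for group means. FOSL1, FOS and IER3 lie lowest in both libraries without EGF, FOSL2 lies highest there, and FOSB stands at 8.33 in the passage 4 control against 5.65 to 6.28 elsewhere.

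At passage 6, FOS family genes had EGF-free differences of both signs. FOSL1 and the survival gene IER3 fell, FOS had a lower and FOSL2 a higher value without passing the test, and JUN was nearly level. Of the 10 genes, 2 passed at a Benjamini-Hochberg adjusted p below 0.05 in limma, both lower, and 0 passed higher. In the same comparison 6.44% of all tested genes passed, 3.56% higher and 2.88% lower. At an unadjusted p under 0.05 there were 6 of the 10, and 4654 of all 14763 tested genes. The median difference of the 10 genes was -0.10, against -0.02 over all tested genes.

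FOSL1 encodes FRA-1, the FOS protein most tied to sustained ERK signalling. Its log2 value was 11.74 and 11.76 in passage 6 controls A and B, and 10.55 and 10.19 in replicates A and B without EGF. In the passage 4 control it was 11.52, and in the passage 4 library labelled BRCA2 siRNA 11.74. All 4 libraries with EGF thus lay within a narrow band and both without EGF lay below it. At passage 6 FOSL1 fell by 1.38 ± 0.13 log2 units (standard error; adjusted p = 0.0162, limma), a 2.60-fold lower level. The difference ran from -1.56 to -1.20 over 16 alternatives. Its call held in 12 of them and was lost without control A (adjusted p = 0.0811), without control B (0.0834), with both averaged (0.0859) and with no filter (0.0776). With the 3 controls of both passages pooled it was -1.30 ± 0.16 (adjusted p = 0.0321, limma), and FOSL1 was then the 1 of the 10 genes to pass, beside 0.989% of all tested genes.

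FOS, the founding member of the family, had log2 values of 9.19 and 8.99 in passage 6 controls A and B and of 8.30 and 7.62 without EGF. The passage 4 libraries were higher, at 9.52 (control) and 9.78 (labelled BRCA2 siRNA). The groups did not overlap, but the replicates without EGF differed from each other by 0.67, and only 3.47% of tested genes differed more between them. The difference at passage 6 was -1.13 ± 0.24 (adjusted p = 0.0633, limma), which missed the threshold. Leaving out EGF-free replicate A gave -1.46 (adjusted p = 2.35e-08) and leaving out EGF-free replicate B gave -0.79 (adjusted p = 5.6e-06), both past the threshold with a spread from controls A and B alone.

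FOSL2, which encodes FRA-2, had higher values without EGF. It was at 11.56 in both passage 6 controls and at 12.05 and 12.73 without EGF, with 11.90 in the passage 4 control and 12.01 in the passage 4 library labelled BRCA2 siRNA. Both libraries without EGF lay above the other 4, replicate A by a small margin over the passage 4 values. The passage 6 difference was 0.83 ± 0.23 (adjusted p = 0.0935, limma), with 0.49 when EGF-free replicate B was left out and 1.17 when EGF-free replicate A was (adjusted p = 1.49e-06 and 6.29e-10, again with a spread from the controls alone). FOSB was low in all passage 6 libraries, at 5.74 and 5.77 in the controls and 5.65 and 5.66 without EGF (difference -0.10 ± 0.10, adjusted p = 0.535, limma).

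The JUN partners had smaller differences. JUN had values of 11.83 and 11.84 in the passage 6 controls and 11.80 and 11.98 without EGF, so the groups overlapped, with a difference of 0.05 ± 0.09 (adjusted p = 0.738, limma). Over all 6 libraries JUN spanned 0.32, the narrowest range of the 10 genes. JUNB, often described as a weaker activator than JUN, was at 8.71 and 8.58 in the controls and at 8.87 and 9.0 without EGF (0.28 ± 0.10, adjusted p = 0.130). JUND, the subunit most often present in resting cells, was at 9.48 and 9.47 in the controls and at 9.72 and 9.96 without EGF (0.37 ± 0.10, adjusted p = 0.0959). For both genes the passage 6 groups did not overlap, but both passage 4 values of JUNB (9.01 and 9.09) and of JUND (10.44 and 10.20) were above those without EGF. The exons of JUNB overlap those of HOOK2 on the other strand, and whether reads were counted by strand is not given in the sources used here.

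EGR1, a zinc finger factor, had values of 10.74 and 10.47 in passage 6 controls A and B, 10.46 and 9.45 in replicates A and B without EGF, and 10.78 (control) and 10.54 (labelled BRCA2 siRNA) at passage 4. Only replicate B without EGF stood apart, and replicate A was level with control B. The replicates without EGF differed by 1.01, and 0.826% of tested genes differed more. The difference was -0.65 ± 0.35 (adjusted p = 0.261, limma), with -0.15 when EGF-free replicate B was left out (adjusted p = 0.38) and -1.16 when replicate A was (0.000509). IER3 was at 11.50 and 11.41 in the passage 6 controls and at 10.91 and 10.84 without EGF, with 11.79 (control) and 12.01 (labelled BRCA2 siRNA) at passage 4. Its values without EGF were thus the lowest and close to each other, and it fell by 0.58 ± 0.08 (adjusted p = 0.0279, limma), a 1.49-fold lower level. The call was lost without control A (adjusted p = 0.398), without control B (0.308), with both averaged (0.357), with no filter (0.0857) and with the controls of both passages pooled (-0.69, adjusted p = 0.126). The exons of IER3 overlap those of IER3-AS1 on the other strand.

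MYC was at 12.91 and 12.90 in the passage 6 controls and at 12.68 and 12.92 without EGF, so the groups overlapped (difference -0.11 ± 0.10, adjusted p = 0.518, limma). At passage 4 it was at 13.41 in the control, the highest of the 6 libraries, and at 12.97 in the library labelled BRCA2 siRNA. In all, the passage 6 groups did not overlap in 8 of the 10 genes, 5 lower and 3 higher, against 64.9% of tested genes, 35.7% lower and 29.2% higher. FOS, FOSB, FOSL1, EGR1 and IER3 were lower in both libraries without EGF than in all 4 with EGF, as were 22.2% of tested genes. FOSL2 alone of the 10 was higher in both than in all 4, as were 16.6% of tested genes. For EGR1 the margin was slight, with 10.46 in EGF-free replicate A against 10.47 in control B. For FOSB it was also small, with 5.66 in EGF-free replicate B against 5.74 in control A.

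**Figure D2:**
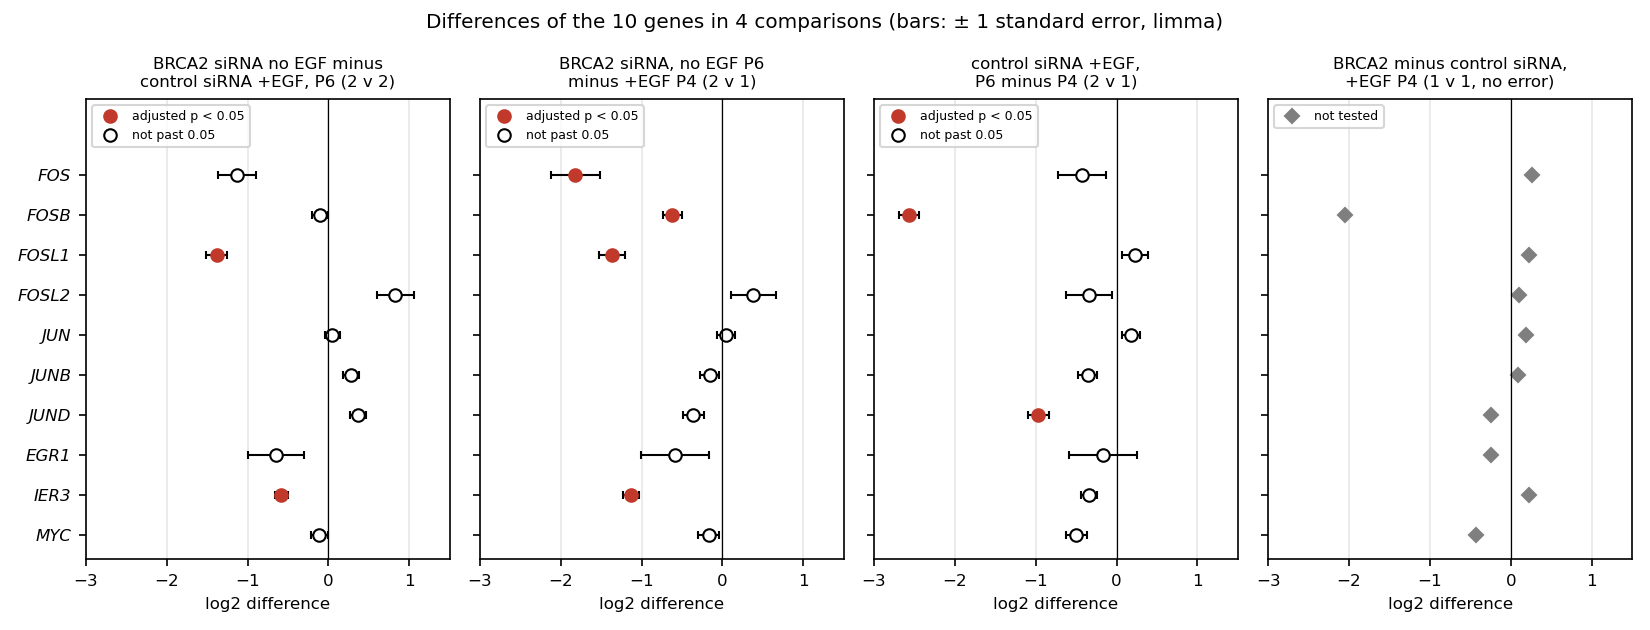
Log2 difference of each gene (x axis) in 4 comparisons, with bars of 1 standard error from limma and filled points for an adjusted p below 0.05; the 1 against 1 comparison has no error. FOSL1 and IER3 are filled in both panels without EGF, and FOSB at -2.57 leads the panel of control passages.

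Levels of different genes were compared per kilobase of exon, from exon lengths of GENCODE 29. In the passage 6 controls the order from the top was MYC (mean log2 level per kb 11.32), IER3 (11.01), FOSL1 (10.87), JUN (10.02), EGR1 (8.96), FOSL2 (8.80), JUND (8.58), JUNB (7.78), FOS (7.53) and FOSB (3.28). Of neighbours in this order only EGR1 (8.82 and 9.09) and FOSL2 (8.80 in both) lay closer than the A to B spread of either. Without EGF the order was MYC (11.22), IER3 (10.44), JUN (10.06), FOSL2 (9.62), FOSL1 (9.49), JUND (8.94), EGR1 (8.30), JUNB (8.07), FOS (6.40) and FOSB (3.18). By the same measure FOSL2 (9.28 and 9.96) was not set apart there from FOSL1 (9.67 and 9.31) or JUN (9.97 and 10.16). Nor was EGR1 (8.81 and 7.80) set apart from JUNB (8.0 and 8.13) or JUND (8.82 and 9.06). In the 4 libraries with EGF, FOSL1 exceeded FOSL2 per kb in each, by 2.83-fold in the passage 4 control, 3.06-fold in the passage 4 library labelled BRCA2 siRNA, and 4.18-fold and 4.23-fold in passage 6 controls A and B. Without EGF the ratio was 1.30 in replicate A and 0.637 in replicate B. The size of a ratio depends on the exon lengths used, but its change between libraries does not. FOSL1 likewise stood above JUN per kb by 0.80 to 0.86 on the log2 scale in the 4 libraries with EGF, and below it by 0.31 (A) and 0.84 (B) without. These within-library ratios were chosen after the values were seen and were not tested.

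**Figure D3:**
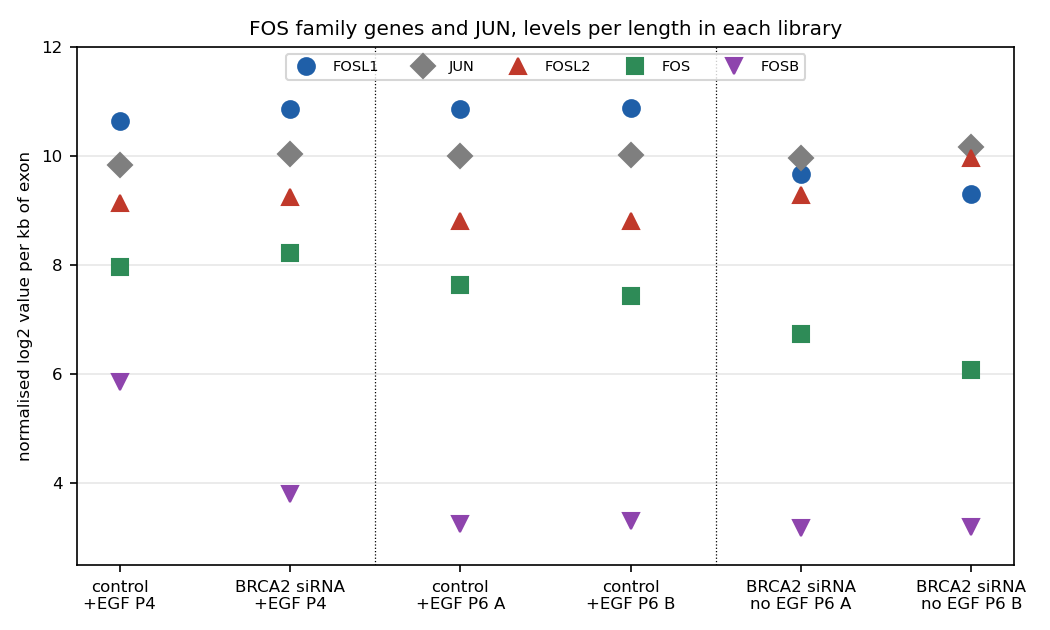
Log2 level per kb of exon (y axis) of the FOS family genes and JUN in each of the 6 libraries (x axis), 1 point a library, with dotted lines between groups of libraries. FOSL1 is the highest of these in the 4 libraries with EGF, with JUN at 9.84 to 10.16 in all 6, and FOSL1 and FOSL2 lie near each other without EGF.

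Within the cells labelled BRCA2 siRNA, the 2 libraries without EGF at passage 6 were set against the 1 with EGF at passage 4, so medium and passage differed together. This comparison shares the libraries without EGF with the first, and its lone library, whose label is in doubt from its BRCA2 level, is assumed to vary like the passage 6 pairs. FOSL1, FOS, IER3 and FOSB fell, 4 of the 10 genes, while 16.3% of all tested genes passed, 7.41% higher and 8.89% lower. FOS fell by 1.82 ± 0.30 (adjusted p = 0.0293, limma), or 3.54-fold, from 9.78 to the 8.30 and 7.62 given above. FOSL1 fell by 1.37 ± 0.16 (adjusted p = 0.0215), IER3 by 1.13 ± 0.10 (adjusted p = 0.0141) and FOSB by 0.62 ± 0.12 (adjusted p = 0.0394). The other 6 genes had differences of -0.59 (EGR1) to 0.38 (FOSL2) with adjusted p from 0.119 to 0.837. None of the 4 calls held without control A, without control B, with both averaged, with no filter or with the controls of both passages pooled. The 4 differences over 14 alternatives ran from -2.16 to -1.49 for FOS, -1.55 to -1.19 for FOSL1, -1.17 to -1.08 for IER3 and -0.70 to -0.49 for FOSB.

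Between passages, the controls with EGF differed most in FOSB and JUND. FOSB was at 8.33 in the passage 4 control and 5.74 and 5.77 at passage 6, so that it fell by 2.57 ± 0.12 (adjusted p = 0.0231, limma) or 5.94-fold. Only 0.0339% of tested genes had a lower difference. JUND fell by 0.97 ± 0.13 (adjusted p = 0.0236). Thus 2 of the 10 genes passed, both lower, while 20.1% of all tested genes passed, 7.71% higher and 12.4% lower. MYC had -0.50 (adjusted p = 0.0543), JUNB -0.36 (0.0905) and IER3 -0.34 (0.0688), and FOSL1 had 0.23 (0.340). Both calls were lost with no filter (adjusted p = 0.0697 for FOSB and 0.0701 for JUND, limma). They were also lost without control A, without control B and with both averaged. The differences hardly moved (FOSB from -2.59 to -2.27 over 13 alternatives). Both calls rest on the single passage 4 control, whose label is in the same doubt. With each library centred on its median, 1488 genes were higher and 1339 lower here, against 1138 and 1825 as reported. In the preceding comparison the split was likewise 1326 and 994 against 1094 and 1312.

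The passage 4 library labelled BRCA2 siRNA was set against the control of that passage, 1 against 1 and without a replicate check. FOSB was lower by 2.05 on the log2 scale, or 4.14-fold, and no other of the 10 genes differed by 1 or more. Of all tested genes 2.21% differed by that much, 1.17% higher and 1.04% lower. MYC was at -0.43, JUND at -0.25 and EGR1 at -0.24, and the other 6 lay between 0.09 (JUNB) and 0.26 (FOS). With the 3 controls pooled, the FOSB difference was -0.34, and JUND turned from -0.25 to 0.40. FOS was then at 0.55, IER3 at 0.44, JUNB and FOSL2 at 0.33 each, JUN and FOSL1 at 0.07 each, EGR1 at -0.12 and MYC at -0.10. The fall of FOSB from passage 4 to 6 in the controls and its lower value in this pair rest on the same library, the passage 4 control.

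Genes with the profile closest to each called member were found by the Euclidean distance between values centred on their mean over the 6 libraries, as a description. Closest to FOSL1 were ETV5 (distance 0.22), an ETS factor induced by ERK, PHLDA2 (0.23) and MYH16 (0.24). ETV5 was at 10.30 and 10.26 in the passage 6 controls and at 8.95 and 8.81 without EGF. Closest to FOS were the glutaredoxin GLRX (0.44), the metallothionein MT2A (0.46) and HMGB3 (0.50), and closest to IER3 were GRK5 (0.14), MEG8 (0.15) and FOXF1 (0.16). For JUND they were PCBP3 (0.08), MMP24OS (0.14) and EPAS1 (0.19), and for FOSB, less close, RAB3IL1 (0.65), HSD17B2 (0.71) and LINC02154 (0.76).

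Other genes of the pathway were read from 7 lists chosen with earlier results of these data known. A list of 26 genes held EGFR, the RAS genes, kinases of the ERK and JNK cascades and the SRF, ELK and MRTF factors. In it MAP2K1, which encodes the ERK kinase MEK1, fell at passage 6 (-0.72 ± 0.08, adjusted p = 0.0186, limma), as did ELK3 (-0.69, adjusted p = 0.0329), and MRTFA rose (0.71, adjusted p = 0.0374). MAP2K1 was at 11.73 and 11.64 in the controls and 10.930 and 10.999 without EGF. These 3 of 26 (11.5%) stand beside 6.44% of all tested genes, and the list's median was -0.07. EGFR did not pass.

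The other immediate early genes had differences of both signs at passage 6. Of 40, 34 were tested, 18 above 0 and 16 below, with a median of 0.01. In all 2 passed (5.88%, against 6.44% of all tested genes), 2 higher and 0 lower, against 3.56% and 2.88%. MAP3K8, a kinase upstream of ERK, rose by 1.25 (adjusted p = 0.0282, limma), from 4.89 and 4.88 to 5.93 and 6.34. With EGF at passage 4 it was at 5.85 (control) and 5.98 (labelled BRCA2 siRNA), near the values without EGF. Its difference between control passages was -0.96. The antiproliferative gene BTG2, named after its value was seen, rose by 0.61 at passage 6 (adjusted p = 0.0340, limma). GADD45B was at 10.15 and 10.21 in the controls, 10.67 and 12.002 in replicates A and B without EGF, and 10.99 and 10.18 at passage 4. PPP1R15A, a phosphatase subunit of the stress response, was at 11.05 and 11.09 in the controls, 10.92 and 12.75 without EGF, and 13.17 (control) and 11.47 at passage 4. Replicate B without EGF and the passage 4 control were thus the high libraries for both. TNFAIP3 was at 12.62 in that replicate, 12.22 and 12.45 in the passage 4 libraries and 11.18 to 11.51 in the other passage 6 libraries. None of these 3 passed (adjusted p from 0.158 to 0.423). Between control passages 8 of the 34 fell (23.5%, against 12.4% of all tested genes), among them, named after their values were seen, CCN1 (-0.997, adjusted p = 0.0236) and SRF (-0.79, adjusted p = 0.0285), and the median was -0.45.

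Of 18 further AP-1 partners 17 were tested. At passage 6 MAF, a leucine zipper factor, rose (1.47 ± 0.20, adjusted p = 0.0298, limma) and ATF5 fell (-0.68, adjusted p = 0.0453), with a list median of 0.10. MAF was at 5.63 and 5.75 in the passage 6 controls, 7.42 and 6.89 without EGF, 7.29 in the passage 4 control and 6.03 in the library labelled BRCA2 siRNA. ATF3, a stress-induced partner of JUN, showed the same 2 high libraries as PPP1R15A, with 10.44 in replicate B without EGF, 10.05 in the passage 4 control and 8.36 to 8.57 in the other 4 (difference 1.002 ± 0.67, adjusted p = 0.357).

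Genes described as AP-1 targets moved in both directions. Of 34 tested, 6 fell and 3 rose at passage 6 (26.5%, against 6.44% of all tested genes), and 24 were below 0, with a median of -0.30. MMP1, an interstitial collagenase and a classical AP-1 target, was at 9.97 and 9.90 in the controls, at 9.76 in both passage 4 libraries and at 7.03 and 7.05 without EGF. It fell by 2.89 ± 0.08 (adjusted p = 0.00333, limma). HMGA1, a chromatin protein, fell by 1.59 (adjusted p = 0.00753) and CCND1, the cell cycle regulator cyclin D1, by 1.57 (adjusted p = 0.0379), while KRT16 rose by 1.54 (adjusted p = 0.00783), with reads that its near-identical keratin copies may share. Named after their values were seen, the urokinase receptor PLAUR (-1.28), MMP10 (-0.81) and urokinase PLAU (-0.41) also fell, and SPRR1B (1.51) and the matrix protein TNC (1.10) also rose. Several of these genes were known to have changed when the list was chosen, so its counts are not independent evidence.

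Genes described as MYC targets lay lower although MYC itself was nearly level. Of 34 tested, 33 were below 0 at passage 6, where 52.6% of all tested genes were, and the median was -0.38. In all 4 of the 34 fell (11.8%, against 2.88% of all tested genes), ODC1 (-0.81 ± 0.09, adjusted p = 0.0203, limma), the rate-limiting enzyme of polyamine synthesis, and, named after their values were seen, NPM1 (-0.49), SRM (-0.49) and NOP16 (-0.42). This list too was chosen with earlier results of these data known, so its counts are not independent evidence. CDC25A (-0.95, adjusted p = 0.0657), HSPE1 (-0.90, 0.0672) and LDHA (-0.67, 0.113) did not pass. Median values relative to the passage 6 controls were -0.34 in replicate A and -0.46 in replicate B without EGF, -0.14 in the passage 4 control and -0.05 in the passage 4 library labelled BRCA2 siRNA. Of 16 MYC partners tested 1 passed (6.25%, against 6.44% of all tested genes), RUVBL1, which fell (-0.40, adjusted p = 0.0442), and the median was 0.01, with MXI1 at 0.38 and MYCL at 0.61 (adjusted p = 0.140 and 0.0519) and MYCBP at -0.45 (0.0870).

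In the list of genes that act on the turnover of FOS, JUN and MYC proteins and mRNAs, 1 of 22 passed at passage 6 (4.55%, against 6.44% of all tested genes). FBXO32, a ubiquitin ligase subunit, rose by 1.42 (adjusted p = 0.00875, limma), from 6.83 and 6.85 to 8.17 and 8.36. It was at 10.57 in the passage 4 control and 7.80 in the library labelled BRCA2 siRNA, so it also fell between control passages (-3.72, adjusted p = 0.02). FBXW7, which marks MYC and JUN for degradation, was at 0.39 (adjusted p = 0.0631), CIP2A, which shields MYC, at -0.41 (0.0561) and ELAVL1 at -0.44 (0.0915), and the list median was -0.11.

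**Figure D4:**
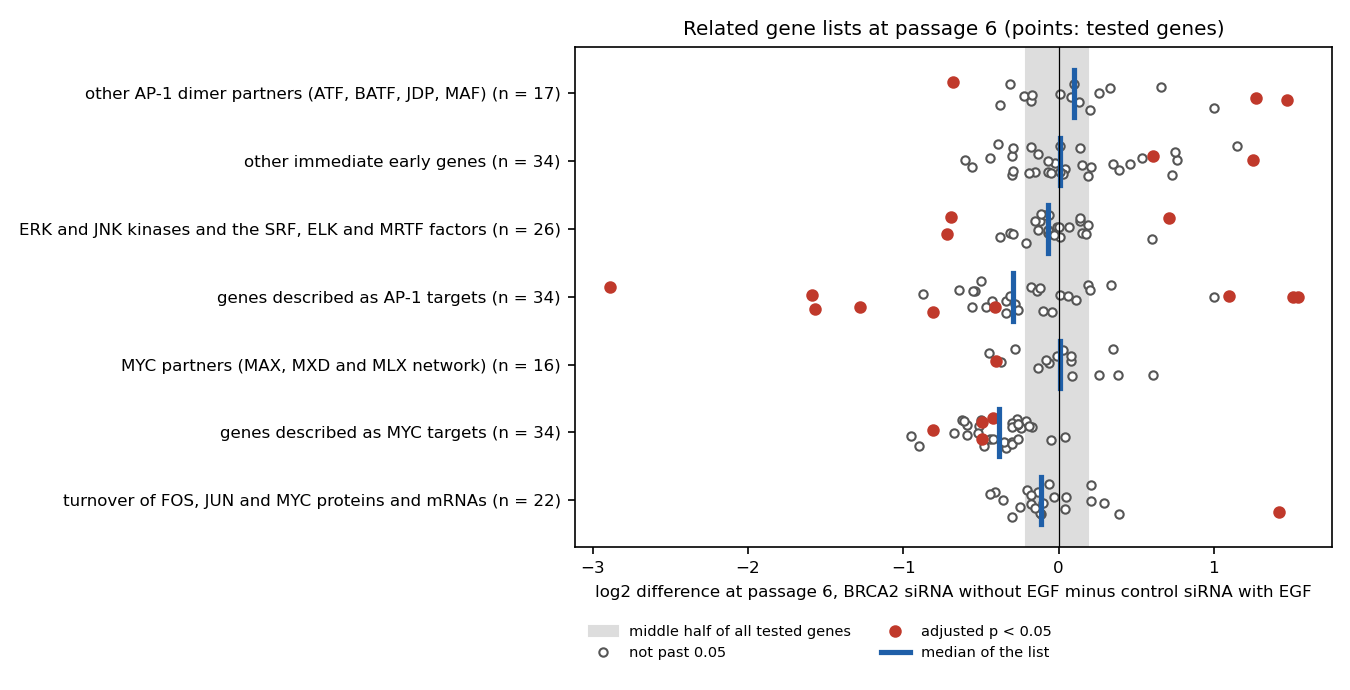
Log2 difference at passage 6 (x axis) of every tested gene of 7 related lists (y axis), with blue bars for list medians, filled points for an adjusted p below 0.05 and a grey band from the lower to the upper quartile of all tested genes. The medians lie between -0.38 (MYC targets) and 0.10 (AP-1 partners), and MMP1 at -2.89 is the lowest point.

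How far each difference at passage 6 depended on 1 library can be read from the alternatives. FOS, FOSB, FOSL1, EGR1 and IER3 stayed below 0 and FOSL2, JUNB and JUND above 0 in all 16. JUN ran from -0.04 to 0.14 and MYC from -0.27 to 0.01. EGR1 had the widest range of the genes below 0, from -1.16 to -0.15. In the alternatives that left out 1 replicate without EGF the spread came from controls A and B alone, and 8 (without A) and 7 (without B) of the 10 genes then passed, against 0 without control A or control B.

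**Figure D5:**
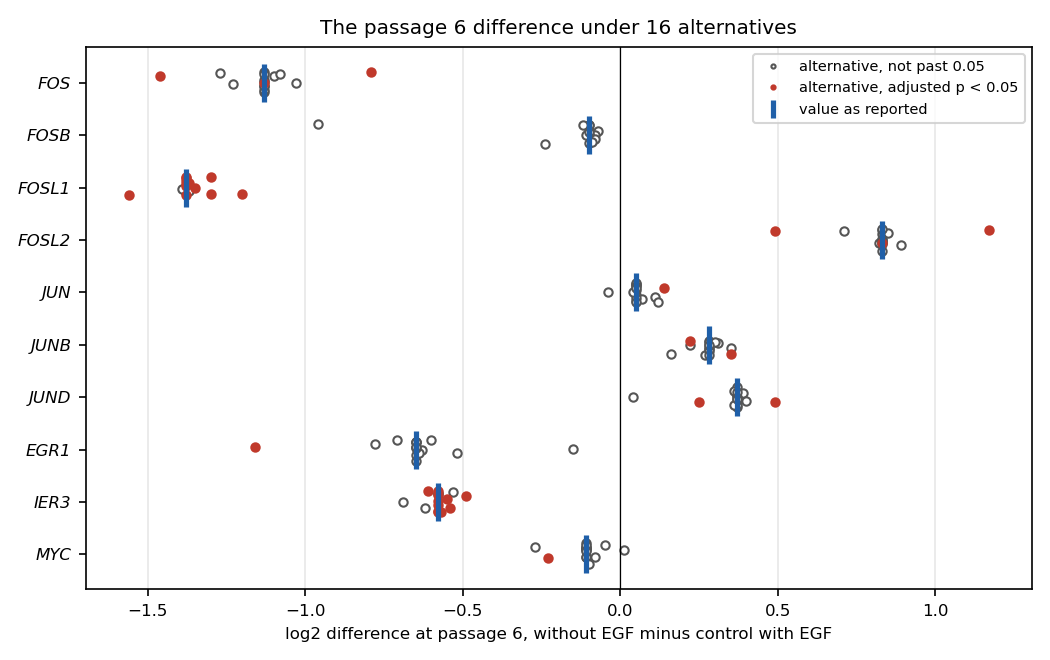
Log2 difference at passage 6 (x axis) of each gene as reported (blue bar) and under 16 alternatives (points, filled where the adjusted p was below 0.05). FOSL1 stays between -1.56 and -1.20, whereas EGR1 spreads from -1.16 to -0.15.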

How the data were processed

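The submitters' processing notes name TopHat2 2.0.11, DESeq2 and hg19. Libraries were Script-seq v2, per the labels' protocols. Not given in the sources used here were the counter, the annotation and the transformation. The authors deposited 1 table of normalised log2 values, from -1.98 to 19.93, with 25986 of 57820 rows at 0 in every library. Differences of low genes may be shrunken. All 6 columns matched a sample by name.

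The 14763 tested genes passed a minimum of 10 for the mean, over libraries, of 2 to the power of the value. They were fitted with limma 3.58.1 in R 4.3.3 (mean-variance trend, robust prior, two-sided), as 4 groups defined by siRNA, medium and passage. This left 2 residual degrees of freedom. P-values were adjusted by Benjamini-Hochberg over all tested genes. Between the passage 4 libraries a difference of at least 1 was counted, with no test. The procedure was tested on simulated data. The alternatives were 3 groups, the replicate letter as a block, other filters, scalings, an offset of 16, no trend or robust prior, averaging controls A and B and leaving out each library. Chosen after seeing the data were leaving out both passage 4 libraries and a crossed letter.

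The members and lists were chosen with earlier results of these data known. Named genes were the 10 members, BRCA2, EGFR, the 4 largest passage 6 differences of each list at a mean of at least 20, and the 3 nearest profiles of each called member, with exceptions marked in the text. Symbols covered 96.4% of tested genes. Some genes of these lists are not reported here by name.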

Additional observations from a re-analysis of the deposited data

How the results depend on the processing

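At passage 6, 950 genes passed in limma; 146 did with 3 groups, 76 with no filter, 46 with controls A and B averaged and from 49 to 8952 without 1 library. Of the 10 members 2 passed; it was 1 with 3 groups, 4 with the replicate block (FOS and FOSL2 added, adjusted p = 0.00426 and 0.0304), 0 with no filter and 0 with averaged controls, and from 0 to 8 without 1 library. Between control passages 2963 passed, with 0 under no filter (7341 at an unadjusted p under 0.05) and 0 with averaged controls (2770), and from 0 to 9849 without 1 library; of the members 2 passed, with 0 and 0 under those settings and from 0 to 9 without 1 library. In the BRCA2 siRNA cells 2406 passed, 30 with 3 groups, 937 with the replicate block, 0 with no filter (7066 at an unadjusted p under 0.05), 203 with averaged controls and from 203 to 9199 without 1 library. Of the members 4 passed there, with 0 under 3 groups, no filter or averaged controls, and from 0 to 8 without 1 library. FOSB alone was lost there with the replicate block (adjusted p = 0.0999). At passage 4, 327 genes differed by at least 1 and 76 with 3 groups, where 0 of the members did; without 1 library it was 326 to 328, with 1 member throughout. Without an EGF-free replicate the noise is that of controls A and B alone, and without control A or B it is that of the EGF-free pair alone.

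Whether the replicate letters pair the libraries cannot be settled here. Differences A minus B of the 2 passage 6 groups had a correlation of -0.17 across tested genes, and with a crossed letter 1795 genes passed. The correlation rests on 1 pair of libraries in each group, so it cannot decide this. The replicate block left 1232 genes at passage 6. Signs turned for MYC at passage 6 (-0.23 to 0.01 without 1 library, the highest without EGF-free replicate A), JUN (-0.04 to 0.14, the lowest without EGF-free replicate B; in the BRCA2 siRNA cells -0.06 to 0.13, the lowest likewise, and -0.01 with the replicate block), EGR1 between control passages (0.15 with the replicate block) and JUND at passage 4 (-0.25, and 0.40 with 3 groups), none of them called as reported; the cause was not tested. The unknown depth sets no limit that can be given.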
